A study of Mus musculus with 1989 samples.

Results

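The genes described here are 8 genes of IL-7 receptor signalling and of related cytokine receptors in the mouse thymus: the receptor chain genes Il7r, Il2rg, Il4ra and Il6ra, the STAT factor genes Stat5a and Stat5b, and the inhibitor genes Socs1 and Socs3. They were chosen by name and role, with earlier results of these data known. All 8 were among the 8846 genes of the single-cell RNA sequencing (scRNA-seq) table. In the single-cell ATAC sequencing (scATAC-seq) table, 262 of 138317 peaks were assigned to them, each peak going to whichever protein-coding gene has an annotated transcript start closest to its centre, within 100 kb. Distances below are from that start, which in Stat5a and Stat5b can lie inside the gene.

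The thymocytes came from male C57BL/6 mice labelled as 7 weeks old, with no genotype, transgene or treatment named. The scRNA-seq data were 1 droplet library of 1993 cells, read at the 3′ ends of transcripts. The scATAC-seq data used were 1626 cells. They were 182 sorted CD4/CD8 double-negative (DN) cells, 125 double-positive (DP) cells, 119 CD4+ T cells, 116 CD8+ T cells and 1084 unsorted total thymocytes. The names of the total thymocytes carry 36 block numbers, called plates here. What such a block is, the names do not say. No label tied a cell to an animal, so the library and each sort were 1 sample, no test between groups was possible, and the 95% intervals below cover counting error only.

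IL-7 is a survival and growth cytokine that stromal cells of the thymus make. Its receptor pairs the IL-7 receptor alpha chain, encoded by Il7r, with the common gamma chain, encoded by Il2rg, and binding activates JAK1 and JAK3, which phosphorylate STAT5. STAT5 induces survival genes such as Bcl2 and also the SOCS inhibitors, which shut the receptor off. Thymocytes are known to need this signal before the DP stage, to lose the receptor as DP cells, and to regain it after positive selection.

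The deposited RNA values were log2 values, quantile-normalized. Within a cell they fall on a ladder of distinct values, and the place of a value on that ladder is called a step here. The cells held 1356 to 22539 steps, so each was thinned at random to 1300 steps before shares of cells with a gene were compared. The thinning treats the place of a value on the ladder as a count, and whether it is one was not tested. Shares below are of thinned cells unless stated. The cells formed 17 clusters when the 8 genes and the other genes of the pathway were left out of the clustering. Of these, 13 were named from markers: DN-like, immature single-positive-like (ISP-like), DP blast-like (DPbla-like), DP rearrangement-like (DPre-like), DP selection-like (DPsel-like), single-positive-like (SP-like), nonconventional lymphocyte-like (NCL-like) and antigen-presenting cell-like (APC-like). SP-like cells held a CD4sp-like cluster, a CD8sp-like cluster and a cluster whose markers were of mature SP cells of no single lineage. The CD4sp-like cluster was only just named so: its mean marker z-score was 0.41 for CD4sp-like and 0.39 for DPsel-like markers, and Itm2a, a DPsel-like marker, led it, beside the CD4sp-like markers Cd40lg and Izumo1r. DPsel-like markers stood there at 57.8 of every 10000 steps, against 70.1 in the DPsel-like cluster and 18.4 and 19.3 in the other SP-like clusters. CD4sp-like markers stood there at 16.7, below 19.2 in the cluster of no single lineage and 22.5 in an unnamed cluster led by Tnfrsf4 and Tnfrsf9. Those 2 clusters had CD4sp-like z-scores of 0.56 and 0.73. The Il7r difference is also given without the CD4sp-like cluster. The cluster of no single lineage was counted as SP-like after its markers were seen, whereas the comparison had been set as CD4sp-like plus CD8sp-like cells; without it the Il7r difference from DPre-like cells was 26.5 instead of 24.7 percentage points. The names were rebuilt here, and a difference from the study's own classes may come from that.

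The labels were checked against defining markers. In DPre-like cells Cd8b1 was found in 100% of cells and Rag1, the recombinase, in 77.7%; Il2ra (CD25) was found in 60.3% of DN-like cells. A pair of values went against the names: Cd8b1 was found in 61.5% of CD4sp-like and 51.3% of DN-like cells. H2-Aa, an antigen-presenting cell gene, was found in 83.3% of APC-like cells and in 7.69% of DN-like, 9.38% of DPre-like and 8.81% of SP-like cells, which gives the level that RNA from other cells can reach for an abundant gene. Its part in the shares below was not tested. In scATAC-seq, DP-sorted cells carried 7.74 of every 10000 counts at Cd8a against 1.55 in DN and 1.70 in CD4 cells, whereas the Il2ra locus was not higher in DN (2.13) than in DP cells (3.64). The summed counts were 1108749 for DN, 478264 for DP, 558091 for CD4, 494645 for CD8 and 6402950 for total thymocytes. Peaks at transcription starts held 41.9% to 44.3% of counts in the sorts and 54.7% in total thymocytes, so total thymocytes are not compared directly with the sorts.

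Il7r (ENSMUSG00000003882.5), the alpha chain of the IL-7 receptor, lies on the minus strand of chromosome 15 at 9505788 to 9530176 of GRCm38. Its RNA was not detected in DPre-like cells and was frequent in SP-like cells. It was found in 0 of 373 DPre-like cells, so a share of up to 0.804% remains possible. SP-like cells had it in 112 of 454 cells, 24.7% (20.8 to 28.9), which is 30.7-fold that limit. The difference was 24.7 percentage points (20.6 to 28.9). The CD4sp-like cluster, which also carried DPsel-like markers, held 62 of the 112 cells, and without it the difference was 18.2 points. DN-like cells had Il7r in 6 of 78 cells, 7.69% (2.88 to 16.0), which is 9.56-fold the DPre-like limit. Without thinning, 1 of 373 DPre-like cells carried a value for Il7r.

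**Figure D1:**
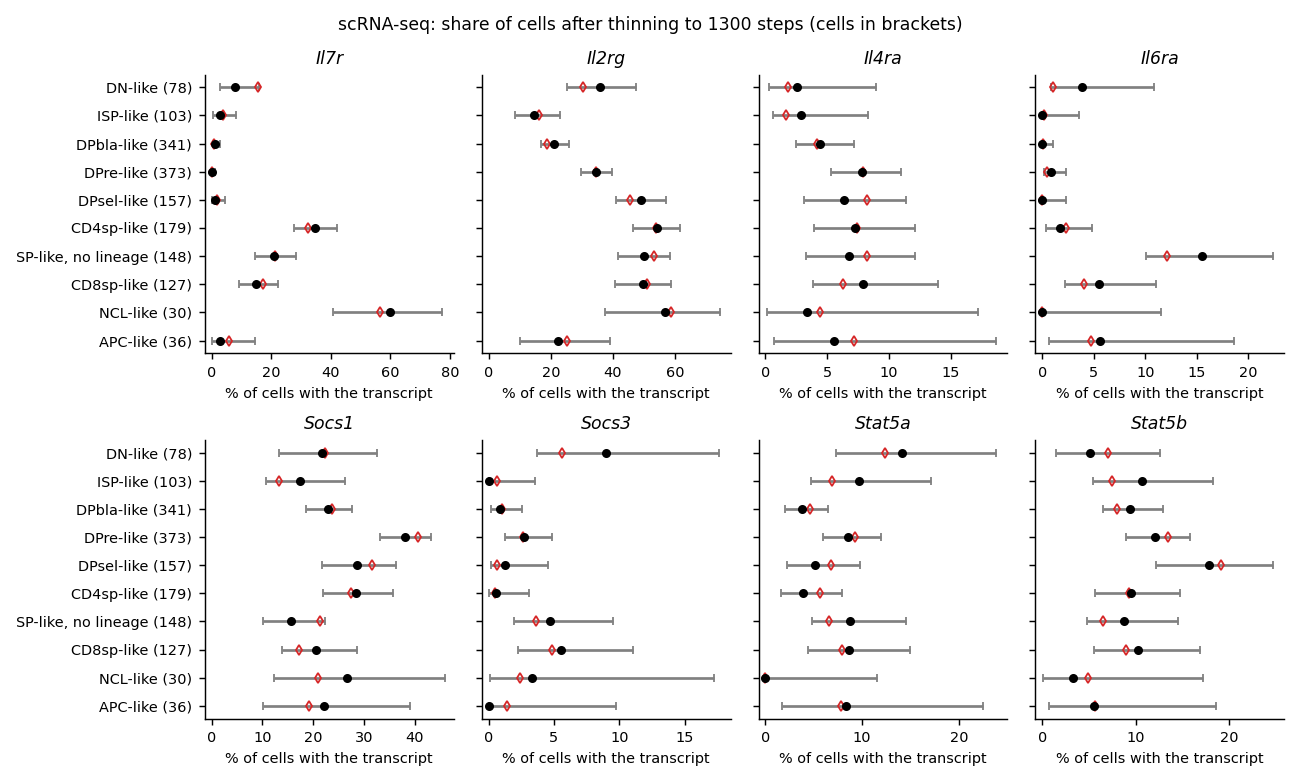
Share of cells (%) with each of the 8 genes after thinning to 1300 steps, by class, with exact binomial 95% intervals; red diamonds give the mean over all possible thinnings. Il7r is near 0 from DPbla-like to DPsel-like cells and reaches 34.6% in CD4sp-like and 60.0% in NCL-like cells, and Socs1 is highest among the named classes in DPre-like cells at 38.1%.

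The classes between them gave Il7r in 2.91% of ISP-like, 1.17% of DPbla-like and 1.27% of DPsel-like cells. It was found in 11.1% (5.46 to 19.5) of an unnamed cluster led by Tnfrsf4 and Tnfrsf9. Among SP-like cells the share was 34.6% (27.7 to 42.1) in the CD4sp-like cluster, 20.9% (14.7 to 28.4) in the cluster of no single lineage and 15.0% (9.25 to 22.4) in the CD8sp-like cluster. The intervals of CD4sp-like and CD8sp-like cells did not overlap. This is a contrast of clusters and not of lineages. The cluster of no single lineage and the Tnfrsf4-led cluster had higher CD4sp-like marker z-scores (0.56 and 0.73) than the CD4sp-like cluster (0.41), with less Il7r. NCL-like cells, which express Klrd1 and Nkg7 of killer lymphocytes, were highest at 60.0% (40.6 to 77.3) of 30 cells. As a mean log2 value, Il7r stood at 1.22 ± 1.03 (SD, n = 30 cells) in NCL-like, 0.68 ± 0.95 (n = 179) in CD4sp-like and 0.31 ± 0.56 (n = 127) in CD8sp-like cells. In the order of all 17 clusters no pair of neighbours had intervals that did not overlap, for Il7r or for the other 7 genes. The DN-like share depended on the thinning draw: the mean over all possible thinnings was 15.4%, and 34.6% of DN-like cells carried Il7r before thinning, at a median of 3633 steps against 1876 and 2073 in the DPre-like clusters.

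The Il7r locus was likewise lowest in DP cells among the 4 sorts. The 22 peaks assigned to Il7r held 15 counts in DP cells, 157 in DN, 205 in CD4, 156 in CD8 and 162 in total thymocytes. Per 10000 counts in all peaks this was 0.31 in DP, 1.42 in DN, 3.67 in CD4, 3.15 in CD8 and 0.25 in total thymocytes. Both SP sorts were above DN and DN above DP, and the 36 plates of total thymocytes ranged from 0 to 1.09. A single cell held 26.7% of the 15 DP counts, and another held 15.4% of the CD8 counts. A count was found in 8.80% of DP cells, 31.9% of DN, 47.1% of CD4 and 39.7% of CD8 cells. In such sums, fewer cells with an open locus and less signal per cell cannot be told apart.

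SP-sorted cells (CD4 and CD8 together) were 10.9-fold above DP cells at Il7r, which was the 99.4th percentile of 11342 genes whose median ratio was 1.04. Peaks of 4 kb overlap and can count 1 read several times, so the counting interval of that ratio, 6.54 to 19.7, is too narrow. Over the 9 Il7r peaks that do not overlap, the ratio was 5.91 (3.43 to 11.0). DP over DN was 0.22, at the 3.28th percentile of 11791 genes with a median of 0.92, and 0.52 (0.27 to 0.95) over the peaks that do not overlap. The label numbers of the cells fall into series, whose meaning the labels do not give and whose depth differs: the median total was 4097 to 6870 counts a cell in the 4000 series and 1220 to 1332 in the 31000 series, the 2 series that hold all sorts. In the 4000 series the Il7r rate was 0.83 in DN, 0.40 in DP, 3.72 in CD4 and 2.61 in CD8 cells. In the 31000 series it was 1.49, 0.37, 3.49 and 11.2, the last from 35 counts in 20 cells. DP cells were thus lowest and both SP sorts highest in each, and the SP rates differed most between the series in CD8 cells. The 4000 and 31000 series held 160 and 75 of the 235 SP cells but 32 and 24 of the 182 DN cells. Those DN cells had 18 and 11 of the 157 DN counts at Il7r, so the pooled DN rate rests mostly on other series. DP over DN was 0.48 in the 4000 series and 0.25 in the 31000 series.

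**Figure D2:**
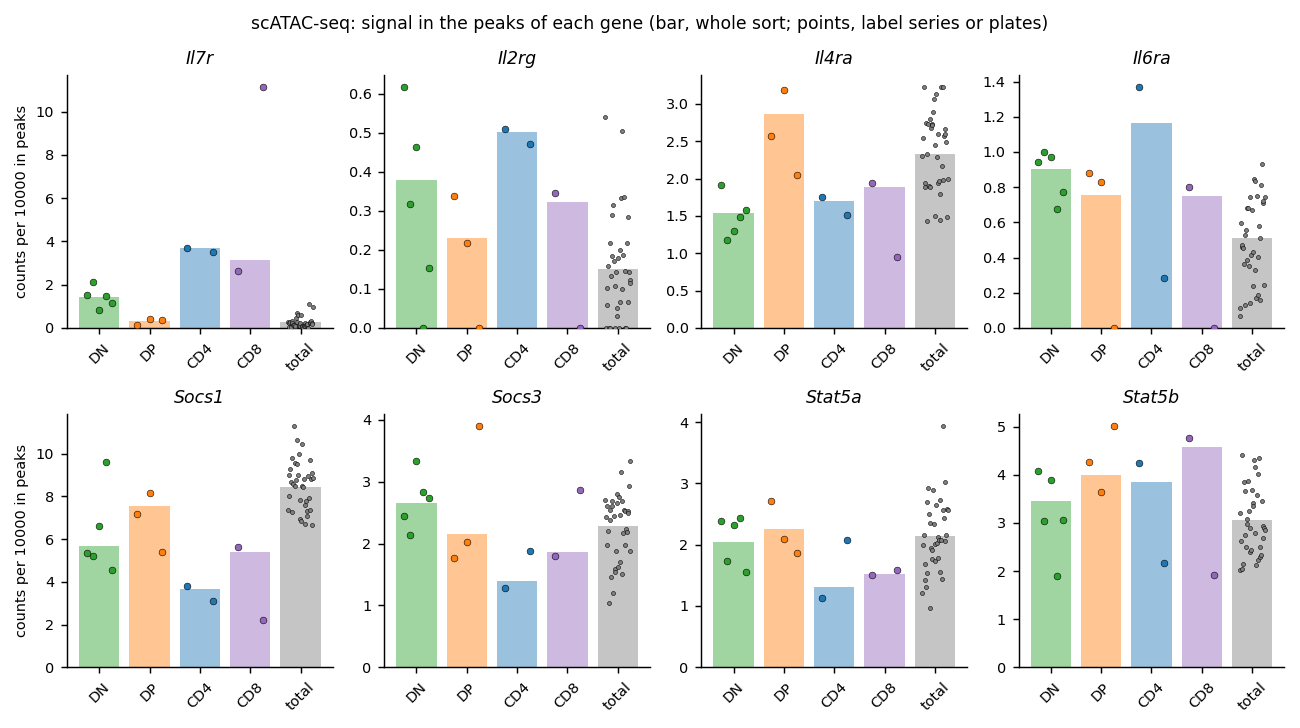
scATAC-seq counts in the peaks of each gene per 10000 counts in all peaks, by sort, as bars for the whole sort and points for its label series or, for total thymocytes, its plates. The Il7r rate is 0.31 in DP cells and above 3 in CD4 and CD8 cells, and the Socs1 rate is higher in DP cells (7.55) than in CD4 cells (3.66).

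Il7r peaks fell into a group at the gene's start and a group upstream in the direction of Spef2. The peak with most counts, at -45.2 kb (chr15:9573063-9577062, intergenic), held 50 counts in CD4 cells, or 89.6 counts per 1000000 in all peaks (CPM; 66.5 to 118). CD8 cells had 24 counts there, 48.5 CPM (31.1 to 72.2), DN cells 15 (13.5 CPM) and DP cells 4 (8.36 CPM). CD4 cells were thus highest and DP cells lowest, and SP over DP was 8.40. At -51.3 kb, in an intron of the neighbouring gene Spef2, DN, DP, CD4 and CD8 cells had 8, 1, 16 and 11 counts. In the peak nearest the start (chr15:9527884-9531883), DP cells had 0 counts, which allows up to 6.27 CPM, DN cells had 15 (13.5 CPM), CD4 cells 10 (17.9 CPM) and CD8 cells 2 (4.04 CPM). SP cells together, at 11.4 CPM, were there 1.82-fold above the limit of 6.27 CPM for DP cells and not above DN cells. In the overlapping peak at +1.4 kb (chr15:9526381-9530380, intron), which held more SP counts, DP cells again had 0 counts, DN cells 13, CD4 cells 9 and CD8 cells 20. SP cells were there 4.39-fold above the same limit. CD8 cells (40.4 CPM) were above CD4 cells (16.1 CPM) at +1.4 kb but below them in the peak nearest the start. The -3.6 kb peak held 13, 1, 9 and 11 counts in DN, DP, CD4 and CD8 cells.

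**Figure D3:**
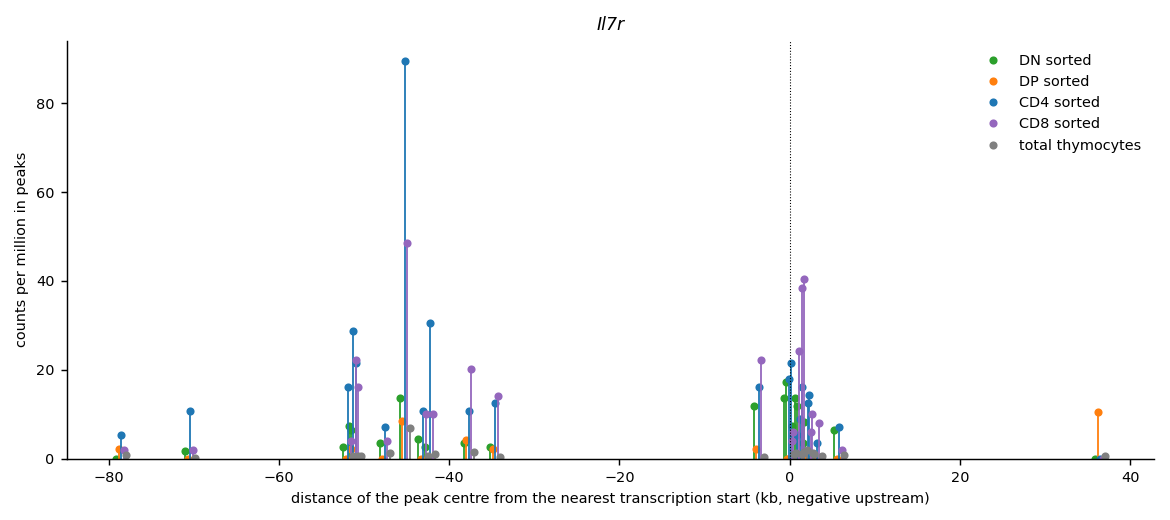
CPM in each peak assigned to Il7r, by distance of the peak centre from the transcription start in kb, upstream negative; the sorts are drawn side by side with small offsets. CD4 cells stand highest at -45.2 kb with 89.6 CPM, and DP cells have no counts at the start.

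The sequences of the Il7r promoter and of the centres of both upstream peaks are shown because the peaks around them held counts in SP cells and few or none in DP cells. They are from the RefSeq GRCm38.p6 assembly. Capitals mark matches, on either strand, to the letters searched: TTCNNNGAA for STAT factors, TGTGGT for Runx factors, TGTTTAC for forkhead factors such as Foxo1, and CCGGAA for Ets factors. The promoter (chr15:9529877-9530126, minus strand, the 250 bases before the RefSeq start) lies inside the wider gene span given above, which has an earlier annotated start, and 86 of its bases are in an annotated exon. It holds a STAT match, the -45.2 kb centre (chr15:9574913-9575212, plus strand) holds 2 Runx matches, and the -51.3 kb centre (chr15:9580946-9581245, plus strand) holds 2 Runx matches and a forkhead match:
Il7r promoter: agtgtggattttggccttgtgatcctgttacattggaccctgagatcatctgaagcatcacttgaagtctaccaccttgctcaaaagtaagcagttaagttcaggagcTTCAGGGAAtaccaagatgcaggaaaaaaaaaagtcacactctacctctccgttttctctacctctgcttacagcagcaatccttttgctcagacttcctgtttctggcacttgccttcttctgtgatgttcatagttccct
Il7r -45.2 kb peak centre: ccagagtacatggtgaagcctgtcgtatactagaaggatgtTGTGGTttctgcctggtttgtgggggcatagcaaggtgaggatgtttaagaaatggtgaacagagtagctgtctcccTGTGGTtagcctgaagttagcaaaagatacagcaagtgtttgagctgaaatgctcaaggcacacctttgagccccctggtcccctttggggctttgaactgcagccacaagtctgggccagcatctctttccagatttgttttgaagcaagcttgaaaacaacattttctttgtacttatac
Il7r -51.3 kb peak centre: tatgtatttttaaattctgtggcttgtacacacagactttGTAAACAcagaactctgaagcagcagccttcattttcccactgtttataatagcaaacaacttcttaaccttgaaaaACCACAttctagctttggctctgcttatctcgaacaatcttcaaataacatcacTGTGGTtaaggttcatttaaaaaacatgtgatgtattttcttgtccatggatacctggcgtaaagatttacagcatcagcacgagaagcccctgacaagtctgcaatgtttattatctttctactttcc

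Such matches are common. Of 32851 promoters of 250 bases, 7.02% held the STAT letters, 14.05% the Runx letters, 3.17% the forkhead letters and 12.0% the Ets letters. Of 62552 peak centres of 300 bases, 8.06%, 29.4%, 4.04% and 9.87% held them. Among 10 promoters of the 8 genes, 2 held the STAT letters (Il7r and Socs3), 1 the Runx letters, 0 the forkhead letters and 3 the Ets letters. Among the 25 peak centres searched, 1 held STAT, 5 Runx, 1 forkhead and 3 Ets letters. A match is a description of letters, not of a bound site.

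Il2rg (ENSMUSG00000031304.18, X chromosome, 101264378 to 101268255, minus strand) encodes the common gamma chain, which the receptors for IL-2, IL-4, IL-7, IL-9, IL-15 and IL-21 share. It was found in all classes, unlike Il7r. SP-like cells had it in 51.5% (46.8 to 56.2) and DPre-like cells in 34.6% (29.8 to 39.7), a difference of 17.0 percentage points (10.0 to 23.7). DN-like cells had 35.9%, and the DPre-like minus DN-like difference was -1.31 points (-13.9 to 10.4). Its sign depended on the thinning: another draw gave 33.2% of DPre-like and 20.5% of DN-like cells, and the mean over all possible thinnings was 34.6% and 30.4%. The low classes were ISP-like at 14.6% and DPbla-like at 21.1%, and DPsel-like cells at 49.0% were already near SP-like cells. NCL-like cells had 56.7% and APC-like cells 22.2%. The 3 peaks of Il2rg were shallow: the start peak held 5 counts in DP, 24 in DN, 18 in CD4 and 8 in CD8 cells, and the SP over DP ratio there was 2.36 (0.89 to 7.88).

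Il4ra (ENSMUSG00000030748.9, chromosome 7, 125552120 to 125579474, plus strand) encodes the alpha chain of the IL-4 and IL-13 receptors. Its RNA was found in few cells of each class, from 2.56% of DN-like to 7.87% of CD8sp-like cells. DPre-like cells had 7.77% and SP-like cells 7.27%. The SP-like minus DPre-like difference was -0.51 points (-4.40 to 3.24). DPre-like cells were 3.03-fold above DN-like cells, from 2 DN-like cells, and that difference of 5.21 points had an interval from -1.66 to 9.12.

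Chromatin at Il4ra was higher in DP cells than in the other sorts. Its 27 peaks held 2.86 per 10000 counts in DP cells, 1.54 in DN, 1.70 in CD4, 1.88 in CD8 and 2.32 in total thymocytes. DP over DN was 1.86, at the 94.4th percentile of genes, and 2.03 (1.39 to 2.95) over peaks that do not overlap; SP over DP was 0.62 and 0.59 (0.41 to 0.85). DP cells were above the other sorts in both label series that hold all sorts, at 3.18 against 1.29 in DN, 1.75 in CD4 and 1.94 in CD8 cells in the 4000 series, and at 2.04 against 1.49, 1.51 and 0.96 in the 31000 series. A single intronic peak at +4.7 kb (chr7:125554987-125558986) carried much of this. It held 45 counts in DP cells, 94.1 CPM (68.6 to 126), 26 in DN (23.4 CPM), 7 in CD4 (12.5), 18 in CD8 (36.4) and 472 in total thymocytes (73.7). DP cells were thus 4.01-fold above DN cells, and SP cells were at 0.25 of DP cells. The start peak of Il4ra held 12, 9, 6 and 4 counts in DN, DP, CD4 and CD8 cells. The centre of the +4.7 kb peak (chr7:125556837-125557136, plus strand) is shown because this peak held more DP counts than any other peak of the 8 genes. It holds none of the letters searched:
Il4ra +4.7 kb peak centre: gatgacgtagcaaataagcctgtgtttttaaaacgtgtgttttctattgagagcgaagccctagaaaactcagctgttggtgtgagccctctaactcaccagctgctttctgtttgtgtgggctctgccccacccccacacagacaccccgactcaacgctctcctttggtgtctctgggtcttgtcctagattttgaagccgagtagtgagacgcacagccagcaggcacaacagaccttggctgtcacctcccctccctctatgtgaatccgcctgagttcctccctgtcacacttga

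Il6ra (ENSMUSG00000027947.11, chromosome 3, 89864059 to 89913196, minus strand) encodes the alpha chain of the IL-6 receptor, which signals through gp130 and STAT3. It was found in 33 of 454 SP-like cells, 7.27% (5.06 to 10.1), and in 3 of 373 DPre-like cells, 0.80% (0.17 to 2.33), 9.04-fold higher. Most of these cells lay in 1 cluster: the SP-like cluster of no single lineage, led by Igfbp4, Klf2 and S1pr1, had 15.5% (10.1 to 22.4), CD8sp-like cells 5.51% and CD4sp-like cells 1.68%. Without that cluster the SP-like share was 3.27%, under the 5% needed to test a gene, and the SP-like minus DPre-like difference was 2.46 points instead of 6.46, so the comparison of CD4sp-like plus CD8sp-like cells alone gave no call for Il6ra. It was not found in thinned ISP-like, DPbla-like, DPsel-like or NCL-like cells. Its locus differed little between the sorts, at 0.90 per 10000 counts in DN, 0.75 in DP, 1.16 in CD4 and 0.75 in CD8 cells, and SP over DP was 1.29. The intronic peak at +40.7 kb held 59, 22, 35 and 19 counts.

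Stat5a (ENSMUSG00000004043.14) and Stat5b (ENSMUSG00000020919.11) lie next to each other on chromosome 11, at 100859351 to 100885169 on the plus strand and 100780731 to 100850724 on the minus strand, and encode near-identical factors that IL-7 activates. Reads shared between such copies may be split or lost in counting, so the levels of each are uncertain. Stat5a was found in 14.1% (7.26 to 23.8) of DN-like, 8.58% of DPre-like and 6.83% of SP-like cells. Neither step passed 2-fold, with differences of -5.52 points (-15.6 to 2.08) and -1.75 points (-5.70 to 2.04). Before thinning, however, Stat5a was found in 13.9% of DPre-like and 30.8% of DN-like cells, more than 2-fold apart. Stat5b was found in 5.13% of DN-like, 12.1% of DPre-like and 9.47% of SP-like cells. DPre-like cells were 2.35-fold above DN-like cells for Stat5b, from 4 DN-like cells, with a difference of 6.94 points (-1.18 to 12.2). The mean over all possible thinnings, 13.4% and 7.05%, did not reach 2-fold, and before thinning the direction was turned, at 19.8% and 20.5%. DPsel-like cells had the highest Stat5b share among the named classes, 17.8% (12.2 to 24.7). No NCL-like cell of 30 had Stat5a, which allows up to 10.0%.

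At the chromatin level the Stat5a locus was at 2.05 per 10000 counts in DN, 2.26 in DP, 1.31 in CD4 and 1.52 in CD8 cells, with SP over DP at 0.62, or 0.56 (0.39 to 0.80) over peaks that do not overlap. The label series differed: it was 0.63 in the 4000 series and 1.06 in the 31000 series, the latter from 27 SP and 10 DP counts. Of this, the peak at +31.4 kb, which lies in an intron of Stat3 (chr11:100889870-100893869), held 26 counts in DP cells, 38 in DN, 12 in CD4 and 8 in CD8 cells. The Stat5b locus differed less: 3.45 in DN, 3.99 in DP, 3.85 in CD4 and 4.59 in CD8 cells. SP over DP was 1.05, which was 1.24 in the 4000 series and 0.42 in the 31000 series, from 29 SP and 27 DP counts. DP over DN was 1.16, which was 0.94 in the 4000 series and 2.65 in the 31000 series, from 27 DP and 14 DN counts. Its largest peak (chr11:100822139-100826138) lies inside the gene, 26.6 kb from its outer start and 1.6 kb upstream of an internal transcript start, and held 50, 32, 31 and 39 counts in DN, DP, CD4 and CD8 cells. A Stat5b peak at +1.7 kb from the outer start held 19 counts in DN cells and 1, 1 and 2 in DP, CD4 and CD8 cells.

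Socs1 (ENSMUSG00000038037.5, chromosome 16, 10782240 to 10785536, minus strand) encodes an inhibitor of JAK kinases that cytokines induce. Its RNA had a pattern unlike that of Il7r. DPre-like cells had Socs1 in 142 of 373 cells, 38.1% (33.1 to 43.2), SP-like cells in 100 of 454, 22.0% (18.3 to 26.1), and DN-like cells in 17 of 78, 21.8% (13.2 to 32.6). SP-like cells were thus 16.0 points lower than DPre-like cells (interval of the difference -22.4 to -9.62), and DPre-like cells 16.3 points higher than DN-like cells (4.40 to 26.3). Neither passed 2-fold. Below DPre-like cells came DPsel-like cells at 28.7%, CD4sp-like at 28.5%, NCL-like at 26.7%, DPbla-like at 22.9%, APC-like at 22.2%, CD8sp-like at 20.5%, ISP-like at 17.5% and the SP-like cluster of no single lineage at 15.5%. Both DPre-like clusters were high, at 36.4% and 41.5%, and so was an unnamed cluster led by Hist1h2bc, at 39.0%. Without thinning the order was another: Socs1 was found in 62.5% of DPbla-like and 54.2% of DPre-like cells, and the DPre-like minus DN-like difference was 2.87 points.

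**Figure D4:**
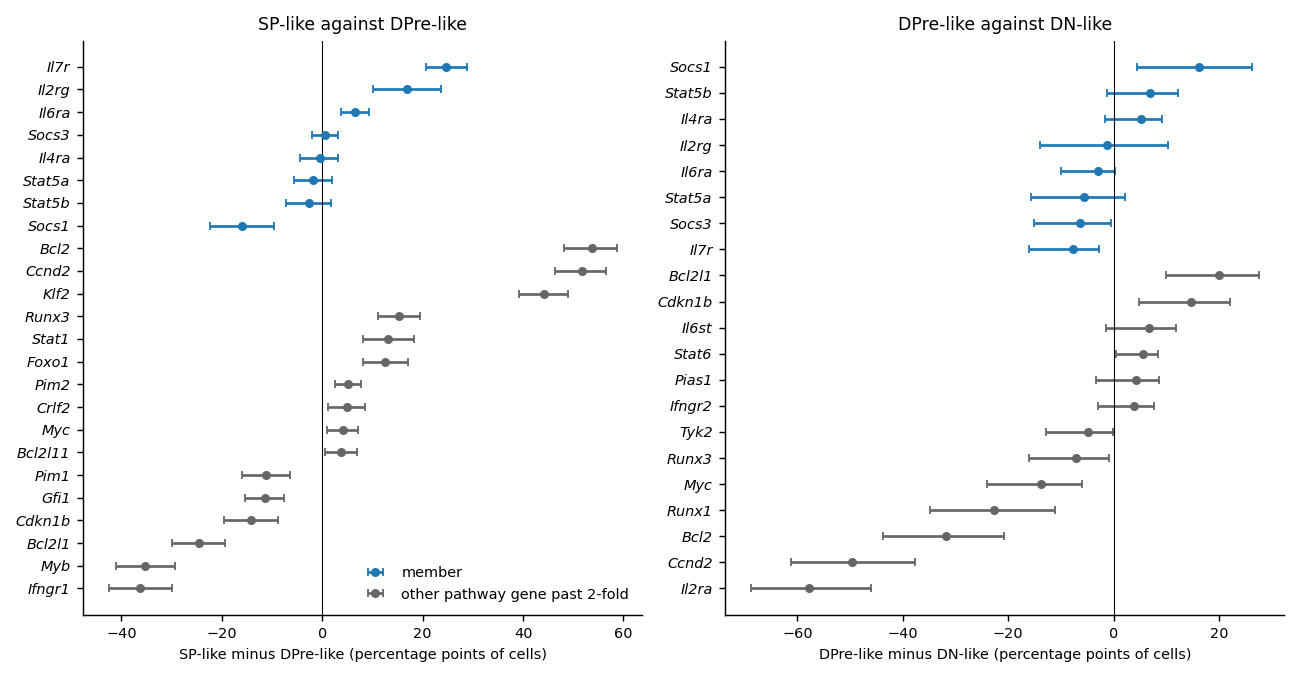
Difference in the share of thinned cells (percentage points) with each gene, for SP-like minus DPre-like and DPre-like minus DN-like cells, with 95% intervals for counting error; blue points are the 8 genes and grey points the other pathway genes past 2-fold. Il7r is 24.7 points higher and Socs1 16.0 points lower in SP-like than in DPre-like cells, and Il4ra, Stat5a and Stat5b have intervals that include 0 in both comparisons.

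The Socs1 locus, with 76 peaks, was at 7.55 per 10000 counts in DP, 5.67 in DN, 3.66 in CD4, 5.40 in CD8 and 8.44 in total thymocytes, where the plates ranged from 6.66 to 11.3. SP over DP was 0.59, at the 10.5th percentile of genes, and 0.62 (0.50 to 0.77) over peaks that do not overlap. DP over DN was 1.33, and 1.56 (1.26 to 1.93) over those peaks. In the 4000 label series DN, DP, CD4 and CD8 cells were at 6.61, 8.17, 3.78 and 5.61. In the 31000 series they were at 9.61, 5.39, 3.11 and 2.23, so SP stayed below DP but DP was not above DN there, from 29 and 71 counts. The start peak (chr16:10783431-10787430) held 33 counts in DP cells (69.0 CPM), 82 in DN (74.0), 26 in CD4 (46.6) and 27 in CD8 (54.6). There DP and DN cells were close.

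Some distal Socs1 peaks differed more than its start. Of the Socs1 peaks with enough counts, 3 of 8 between SP and DP and 5 of 15 between DP and DN differed 2-fold or more. At +85.2 kb (chr16:10698340-10702339), in an intron of the neighbouring gene Clec16a, DP cells held 27 counts, DN 13, CD4 4, CD8 18 and total thymocytes 488. DP was 4.81-fold above DN, and SP was at 0.37 of DP. At +71.5 kb, also in Clec16a, the counts were 16 in DP, 7 in DN, 0 in CD4 and 1 in CD8. Its SP and DP counts together were under the minimum of 20 used below. At +13.3 kb (chr16:10770272-10774271, intergenic) the order was turned: DP cells held 14 counts, DN 39, CD4 24 and CD8 29, and SP over DP was 1.72. Distal peaks were assigned by distance alone, and whether they act on Socs1 was not measured.

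The Socs1 promoter (chr16:10785537-10785786, minus strand, 3 Ets matches) and the centres of the +13.3 kb peak (chr16:10772122-10772421, plus strand, 2 STAT matches) and the +85.2 kb peak (chr16:10700190-10700489, plus strand, no match) are shown for the start and for both directions of change. Capitals again mark the matches:
Socs1 promoter: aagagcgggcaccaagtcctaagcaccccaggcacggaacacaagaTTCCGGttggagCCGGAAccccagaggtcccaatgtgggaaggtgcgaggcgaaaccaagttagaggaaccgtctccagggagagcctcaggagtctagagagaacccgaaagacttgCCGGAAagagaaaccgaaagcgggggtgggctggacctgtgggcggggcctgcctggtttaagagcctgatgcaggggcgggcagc
Socs1 +13.3 kb peak centre: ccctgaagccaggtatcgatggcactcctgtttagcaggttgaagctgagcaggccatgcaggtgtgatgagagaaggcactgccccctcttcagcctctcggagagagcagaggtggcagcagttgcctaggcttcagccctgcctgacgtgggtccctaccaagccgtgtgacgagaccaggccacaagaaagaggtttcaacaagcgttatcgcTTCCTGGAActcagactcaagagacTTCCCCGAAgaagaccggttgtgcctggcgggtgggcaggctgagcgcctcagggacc
Socs1 +85.2 kb peak centre: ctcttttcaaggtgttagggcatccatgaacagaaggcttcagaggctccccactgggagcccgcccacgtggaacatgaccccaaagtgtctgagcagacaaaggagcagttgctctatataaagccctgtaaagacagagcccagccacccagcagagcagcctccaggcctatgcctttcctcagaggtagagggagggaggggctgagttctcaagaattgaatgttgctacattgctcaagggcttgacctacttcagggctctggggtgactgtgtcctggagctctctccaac

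Socs3 (ENSMUSG00000053113.3, chromosome 11, 117966079 to 117970047, minus strand) encodes an inhibitor that acts on gp130 cytokine receptors. It was rare in RNA, in 8.97% (3.68 to 17.6) of DN-like, 2.68% of DPre-like and 3.30% of SP-like cells. The DPre-like minus DN-like difference was -6.29 points (-15.1 to -0.57), although the mean over all possible thinnings gave DN-like cells 5.65%, and with another thinning draw the shares, 3.49% and 5.13%, were not 2-fold apart. Among SP-like clusters it was found in 5.51% of CD8sp-like cells, 4.73% of the cluster of no single lineage and 0.56% of CD4sp-like cells. Whether these shares differ was not tested. The Socs3 locus was at 2.65 per 10000 counts in DN, 2.15 in DP, 1.40 in CD4 and 1.86 in CD8 cells, and 1 DP cell held 15.5% of the DP counts. The order of DN and DP cells was not stable. DP over DN was 0.81, but 1.04 (0.69 to 1.53) over peaks that do not overlap. It was 0.61 in the 4000 label series and 1.37 in the 31000 series. The peak over its start, at +0.2 kb, held 21 counts in DN, 1 in DP, 7 in CD4 and 4 in CD8 cells, and DP was at 0.11 of DN. The peak with most counts in SP cells, at +16.9 kb (chr11:117950323-117954322, intergenic), held 23, 13, 25 and 11 counts.

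Counted over the genes, with a gene tested where its share was at least 5% in either class and called where the shares differed 2-fold or more, 2 of the 7 tested were higher in SP-like than in DPre-like cells, Il7r and Il6ra, and 0 were lower. Over all genes tested, 8.59% were higher and 9.03% lower. Between DPre-like and DN-like cells, 2 of 7 tested were higher in DPre-like cells (Il4ra and Stat5b) and 2 lower (Il7r and Socs3), where 12.0% of 5741 genes were higher and 15.4% lower. Il7r, Il6ra, Il4ra and Socs3 each reached the 5%, in the comparisons that called them, only in the class where they were high, and Il6ra was not called without the SP-like cluster of no single lineage. These counts are therefore a description, and nothing is read from them against the shares over all genes.

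Over peaks, with at least 20 counts in both sorts together, 35 of the 262 were tested between SP and DP cells. Of these, 10 were higher in SP cells 2-fold or more (7 at Il7r, 1 at Il2rg, 2 at Stat5b) and 8 lower (3 at Il4ra, 3 at Socs1, 2 at Stat5a), where 17.2% of 20143 peaks were higher and 11.6% lower. The 7 Il7r peaks, of 22, passed the minimum through their SP counts alone, so that all 7 were higher is a description. Between DP and DN cells 39 were tested: 9 were higher in DP cells (5 at Socs1, 3 at Il4ra, 1 at Stat5a) and 4 lower (1 each at Il2rg, Socs3, Stat5a and Stat5b), where 12.6% of 20464 peaks were higher and 14% lower. No Il7r peak reached 20 counts there. Tested peaks overlap and are not independent.

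The members were also looked for together in single SP-like cells. Of 112 cells with Il7r, 71.4% (62.1 to 79.6) also had Bcl2, the survival gene that IL-7 induces, against 55.0% (49.5 to 60.3) of 342 cells without it. Il2rg was found in 51.8% and 51.5%, Socs1 in 26.8% and 20.5%, Stat5a in 2.68% and 8.19%, and Stat5b in 8.04% and 9.94%. By cluster, Bcl2 was found in 75.8% of 62 cells with Il7r and 59.8% of 117 without in the CD4sp-like cluster, in 84.2% (60.4 to 96.6) of 19 and 53.7% (43.8 to 63.3) of 108 in the CD8sp-like cluster, and in 54.8% (36.0 to 72.7) of 31 and 51.3% (41.9 to 60.6) of 117 in the cluster of no single lineage. Whether the contrast differs between the clusters was not tested. These are cells of 1 library, and an undetected gene may still be expressed.

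Across the 17 clusters, the genes whose mean thinned level followed Il7r most closely were Inpp4b (Pearson r = 0.97), Ptk2b (0.93), Hcst (0.92), Ugcg (0.92) and Klk8 (0.91), of 4550 genes. Il2rg followed Il7r at 0.67, and Socs1 had a correlation of -0.07 with it. Those most like Socs1 were Zfp512 (0.90), Btg2 (0.89), Chmp1b (0.89), Map1lc3b (0.86) and Stx6 (0.86). Those most like Il6ra included S1pr1 (0.95) and Klf2 (0.92), genes of thymic exit. Each cluster counted alike, from 30 to 250 cells, and Il7r was highest in the NCL-like cluster of 30 cells. Single clusters can therefore weigh heavily in these correlations. The clusters share 1 library and were drawn from the same cells, so these values are descriptions.

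The wider pathway was read from a list of 57 genes, of which 50 were in the table and 37 were tested in each comparison. Between SP-like and DPre-like cells 10 of the 37 were higher and 6 lower, where 8.59% of all genes tested were higher and 9.03% lower. The median difference was 0.54 points against -0.49 over all genes tested. Ccnd2, Bcl2l11, Pim2, Myc, Klf2, Runx3, Crlf2 and Gfi1 reached the 5% only in the class where they were high. These counts are therefore a description, and nothing is read from them against the shares over all genes. Survival and STAT5 target genes were split: Bcl2 was found in 59.0% of SP-like and 5.36% of DPre-like cells and Ccnd2 (cyclin D2) in 54.6% and 2.95%, whereas Bcl2l1 (Bcl-xL), the survival gene of DP cells, was found in 5.73% and 30.3%. Bcl2l11 (7.05% and 3.22%), Pim2 (5.95% and 0.80%) and Myc (7.05% and 2.95%) were also higher, and Pim1 (7.05% and 18.2%) and Cdkn1b (10.8% and 24.9%) lower. Among factors known to regulate Il7r, Foxo1 (18.5% and 5.90%), Klf2 (45.8% and 1.61%) and Runx3 (18.5% and 3.22%) were higher in SP-like cells, although Klf2 and Runx3 were also markers used to name CD8sp-like cells. Gfi1, a repressor of Il7r, was lower (1.98% and 13.4%), as was Myb (9.69% and 45.0%). Of the receptor chains, Crlf2, the TSLP receptor that pairs with the Il7r product, was higher (9.69% and 4.83%) and Ifngr1 lower (18.1% and 54.4%). None of the 6 tested inhibitors outside the members passed 2-fold.

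Between DPre-like and DN-like cells 6 of the 37 were higher and 7 lower, near the shares over all genes tested (12.0% higher and 15.4% lower), so the genes below are given for their own values. The list had a median difference of -1.06 points against -0.57 over all genes tested. Il2ra, which marks the DN class and helped to name it, was found in 2.41% of DPre-like and 60.3% of DN-like cells. Bcl2 (5.36% and 37.2%), Ccnd2 (2.95% and 52.6%) and Myc (2.95% and 16.7%) were lower in DPre-like cells, together with Tyk2, Runx1 (15.8% and 38.5%) and Runx3 (3.22% and 10.3%). Bcl2l1 (30.3% and 10.3%) and Cdkn1b (24.9% and 10.3%) were higher, together with Il6st, Ifngr2, Stat6 and Pias1, of which each was found in at most 5.13% of DN-like cells. Both comparisons share the DPre-like cells, so they are not independent of each other.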

How the data were processed

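The 8 genes, the pathway list and the class markers were chosen with earlier results of these data known. For scRNA-seq, the authors aligned reads with Cell Ranger 1.3.1 to GRCm38.p5 (the submitters' notes also name hg38), removed ribosomal, mitochondrial and pseudogene RNA and low-quality cells, and deposited quantile-normalized log2 values. For scATAC-seq, the authors mapped trimmed reads with Bowtie2, dropped duplicates (Picard), used MACS2 on the merged cells to define peaks and deposited a count per peak and cell. The build of the peaks was checked: 27.9% of peak centres lay within 2 kb of a GRCm38 start, against 9.41% after a shift of 100 kb.

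Of 1988 scATAC-seq cells, 362 were not used: 352 total thymocytes without a plate number and 10 of no stated group. No scATAC-seq cell was removed by depth; the median total count per cell was 3378 in DN, 3866 in DP, 2571 in CD4, 3936 in CD8 and 5792 in total thymocytes. scRNA-seq cells had a median of 1484 detected genes (830 to 5025) and no further filter, and no doublet caller was run; an alternative left out, from every cluster, the 5% of cells that detected most genes.

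Clustering of the RNA data used R 4.3.3 and Seurat 5.3.0 (1279 of 1306 variable genes, 20 principal components, 30 neighbors, resolution 2). Of 9 classes, a cluster took the one whose markers had the highest mean z-score, unless its top 10 genes went against it. Intervals for shares are exact binomial (Clopper-Pearson) and those for peak rates exact Poisson. Those for differences of shares are of the Newcombe type, and those for ratios come from the exact binomial of the summed counts. All are at 95%. A share or count of 0 was bounded by 3 cells or counts. A ratio given as at least or at most sets that bound against the other group's observed value and leaves out that value's counting error. Python 3.11.15, numpy 2.4.6, scipy 1.17.1, pandas 2.3.3 and matplotlib 3.10.9 were used. The code was tested on simulated data. Named genes are the 8 members, the pathway genes past 5% and 2-fold, and the 5 genes most correlated with Il7r or Socs1 over clusters; S1pr1 and Klf2, named for Il6ra, and peaks other than those nearest the start, with most counts or with the largest ratio per gene, were chosen after their values were seen. Alternatives were other clusterings, no thinning or another thinning draw, other sets of peaks per gene and single label series; leaving out 1 SP-like cluster and the mean over all possible thinnings were added after seeing the data. The SP-like class held 1 cluster more than the CD4sp-like and CD8sp-like clusters the design named. 1 gene of the pathway list that is included in its counts is not reported here by name.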

Additional observations from a re-analysis of the deposited data

How the results depend on the processing

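Of 144 scRNA-seq alternatives, 131 stayed within the counting interval of the reported difference and 132 kept its direction; of 108 scATAC-seq alternatives, 75 stayed within the interval of the ratio and 91 kept its side of 1. The cause of a change was not tested. For the SP-like minus DPre-like difference, Il7r was 15.0 points with all variable genes in the clustering, 16.2 with 30 principal components, 35.9 without thinning and 18.2 without the CD4sp-like cluster; Il2rg was 25.1 without thinning; Il6ra was 10.1 without the CD4sp-like cluster and 2.46 without the cluster of no single lineage. For DPre-like minus DN-like, without thinning Il7r was -34.3, Socs1 2.87, Stat5a -16.8 and Stat5b -0.67, which turned its direction, and with another thinning draw Il7r was -19.2 and Il2rg 12.7.

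For the SP over DP ratio, peaks in the gene body and 5 kb upstream gave Il7r 67.7 (from 1 DP count), Il4ra 0.89, Socs1 0.73 and Socs3 1.06. The peak nearest a start alone gave Il6ra 0.45, Socs1 0.73, Socs3 5.00 and, at its internal start, Stat5b 1.92. The peaks that do not overlap gave Il7r 5.91. The 31000 label series gave Socs3 0.54, Stat5a 1.06 and Stat5b 0.42.

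For DP over DN, the gene body set gave Il7r 0.023, Socs1 0.95 and Socs3 0.53. The peak nearest the start gave Il7r at most 0.46 (0 DP counts), Il6ra 4.06, Socs1 0.93, Socs3 0.11 and Stat5a 0.73. The peaks that do not overlap gave Il7r 0.52, Socs1 1.56 and Socs3 1.04. The 4000 series gave Il7r 0.48, Il4ra 2.46, Socs3 0.61 and Stat5b 0.94. The 31000 series gave Il4ra 1.37, Il6ra at most 0.82 (0 DP and 5 DN counts), Socs1 0.56, Socs3 1.37, Stat5a 0.76 and Stat5b 2.65. Where DP cells had no count, only a bound could be given for Il7r SP over DP at the peak nearest the start (at least 1.82) and no value was given, in the 31000 series, for Il2rg in both ratios and Il6ra in SP over DP. No paired analysis was possible because each sort and the library were 1 sample; the values within the 4000 and 31000 series are given above, but the labels do not say what a series is.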
